A study of Mus musculus with 2 samples.

Results

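Interferon-stimulated genes (ISGs) are the genes that cells switch on when an interferon binds its receptor. A list of 38 of them was followed here across single cells of mouse pancreatic islets, chosen by gene symbol from the 31053 genes counted in both libraries. All 38 had UMIs (unique molecular identifiers, each standing for 1 captured transcript) in macrophages of both libraries. The list was divided by textbook knowledge. It holds 25 genes that lean to type I interferon, 5 that lean to type II interferon and 8 that answer to both or more broadly. The members and groups were chosen with earlier results of these data known. The study addressed the macrophages that reside in islets and their antioxidant genes. Immune cells were sorted alive as CD45-positive and Epcam-negative from islets of pooled male C57BL/6J mice on chow diet, with no transgene or other treatment named in the labels. Each pool held 6 to 8 mice. One library carries the time label 1 week and the other 12 weeks. What the weeks are counted from is not stated in those labels, and the titles number the libraries as replicates 1 and 2.

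Macrophages were the cells with at least 5 UMIs of the complement genes C1qa, C1qb and C1qc, a rule that used no member of the list. They numbered 1243 of 1340 filtered cells at 1 week and 1620 of 1752 at 12 weeks, with medians of 7401 and 6890.5 UMIs, from libraries of 12858754 and 12448628 UMIs. All 7 other macrophage markers checked, among them Csf1r, Adgre1 and Cd68, were detected in them in both libraries, at summed levels of 4197 and 3981 CPM (UMIs of a gene scaled to a total of 1000000 per class and library). Cells with fewer than 5 C1q UMIs and at least 3 marker UMIs were taken as B cells (26 in each library), T cells (9 and 33) and dendritic cells (12 and 23). These held C1q at 0.16% to 0.861% of the macrophage level. The libraries shared 3 barcodes, of which 2 passed the filters in both. At 1 week, B cells and dendritic cells carried islet hormone transcripts at 108100 and 79310 CPM, against 1006 and 776.8 at 12 weeks. Leaving these transcripts out of the class test below changed no count of called members.

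As background, type I interferons are a family of alpha interferons plus interferon beta that share the receptor IFNAR1–IFNAR2. That receptor acts through the kinases JAK1 and TYK2, and STAT2 and IRF9 are part of the complex that then binds the interferon-stimulated response element (ISRE). Type II interferon, interferon gamma, is made mainly by T cells and natural killer cells and acts through the receptor IFNGR1–IFNGR2 on genes with a gamma-activated site (GAS). Macrophages make interferon beta when their sensors meet nucleic acid or microbial products, and they answer both types.

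Promoters of several members hold matches to these elements, and the stretches that carry them are shown for some of the matched members named in the results below. In the RefSeq promoter table (GRCm38.p6), 31 of the 38 members had an entry, and the 250 bases before the start site were searched on both strands. The ISRE core was taken as GAAA, any 2 bases, then GAAA (TTTC, any 2 bases, then TTTC on the other strand). The GAS core was taken as TTC, any 3 bases, then GAA, which reads the same on both strands, and matches may overlap. Stretches read 5′ to 3′ along the gene, and capitals mark matches to either core.
Isg15, chr4:156200865-156200906, minus strand: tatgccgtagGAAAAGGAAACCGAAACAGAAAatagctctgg
Ifit1, chr19:34640775-34640823, plus strand: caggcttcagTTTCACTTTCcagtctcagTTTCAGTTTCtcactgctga
Ifit3, chr19:34583363-34583426, plus strand: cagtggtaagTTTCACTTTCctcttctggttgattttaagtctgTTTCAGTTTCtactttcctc
Ifit3b, chr19:34607759-34607822, plus strand: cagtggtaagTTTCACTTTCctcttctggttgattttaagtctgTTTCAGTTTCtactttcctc
Rsad2, chr12:26456553-26456582, minus strand: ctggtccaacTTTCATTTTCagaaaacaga
Cxcl10, chr5:92349083-92349112, minus strand: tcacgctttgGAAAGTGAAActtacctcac
Bst2, chr8:71537577-71537618, minus strand: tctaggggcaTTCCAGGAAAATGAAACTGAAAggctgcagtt
Gbp3, chr3:142559989-142560024, plus strand: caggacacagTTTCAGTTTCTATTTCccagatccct
Gbp7, chr3:142530220-142530302, plus strand: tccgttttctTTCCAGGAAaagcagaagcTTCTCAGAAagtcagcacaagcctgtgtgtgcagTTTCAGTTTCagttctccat

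An ISRE core was found in 16 of the 31 promoters (51.6%), against 3.46% of the 27025 genes in the table. Isg15 held 3 overlapping matches, and Ifit1, Ifit3, Ifit3b, Oas1a, Gbp3 and Bst2 held 2 each. The stretches of Ifit3 and Ifit3b were identical at all 64 bases, at different distances from the 2 start sites. The guanylate-binding protein genes Gbp2, Gbp3, Gbp5 and Gbp7 all held an ISRE core although they lean to type II interferon. A GAS core was found in 6 of the 31 promoters (19.4%), those of Ifit2, Oas1a, Gbp5, Gbp7, Bst2 and Isg20, against 8.13% of all genes. Gbp5 and Gbp7 held 2 GAS matches and 1 ISRE match each, and in Bst2 the GAS match overlapped the first of 2 ISRE matches. Among members named below, Oasl1, Oasl2, Irf7, Irf9, Ifih1, Ifi35, Ifi47, Ifitm3, Herc6 and Cmpk2 had an entry and no match to either core. Ifi204, Usp18 and Dhx58 had no entry. A match shows that these letters are present, and a promoter without a match lacks only these letters in this window.

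In macrophages the members spanned a wide range of levels, given here in CPM at 1 week and then at 12 weeks. The highest in both libraries were 2 of the 8 broad members. Bst2, which tethers budding virus to the cell surface (chromosome 8, 71534255 to 71537456, minus strand, GRCm38), stood at 669 and 612. Cxcl10, a chemokine that draws activated T cells, stood at 475.5 and 444. Because only transcript ends were counted, these levels compare genes without a length correction. The summed type I members stood at 1187 (95% interval 1167 to 1207) and 1739 (1715 to 1763), the type II members at 102 (96.1 to 108) and 136 (129 to 143), and the broad members at 1499 (1477 to 1522) and 1521 (1499 to 1544). These intervals cover counting error only. Macrophages carried islet hormone transcripts at 19680 CPM at 1 week and 5737 at 12 weeks, and 10 heat shock genes at means of 22.65 and 49.97 UMIs per cell at equal depth. With mitochondrial and hormone transcripts left out the log2 ratio of 12 weeks over 1 week was 0.52 for the type I sum, against 0.55 with them, and the part of the heat shock difference was not tested. With 1 library per time label there is no test between the labels, and fewer responding cells cannot be told apart from less RNA in each cell in such sums.

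Most members were higher in the 12-week library. The ratio of 12 weeks over 1 week was above 1 for 34 of the 38 members (89.5%), against 43.0% of the 9427 genes with at least 50 macrophage UMIs. The median log2 ratio of the members was 0.59, against -0.06 for all those genes. Past 2-fold, 4 members were higher and 0 lower, where 1.77% of all genes were higher and 3.17% lower. Counting intervals lay above a ratio of 1 for 31 members and below it for 3. They leave out the clumping of UMIs in few cells.

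Of the 4 past 2-fold, 3 belong to one family. The IFIT genes encode proteins that bind foreign or uncapped RNA. Ifit2 stood at 23.1 and 57.0 CPM, a log2 ratio of 1.30 (1.09 to 1.51), and Ifit3 at 29.5 and 75.0, a log2 ratio of 1.34 (1.16 to 1.53). Ifit3b, its near-copy, stood at 8.77 and 23.25, although reads that fit both copies cannot be told apart, so that their split is uncertain. Cmpk2, a mitochondrial nucleotide kinase gene, stood at 6.40 and 14.7, a log2 ratio of 1.20 (0.80 to 1.60). Its chromosomal neighbour Rsad2 encodes viperin, which makes a chain-terminating nucleotide, and stood at 130 and 231, a log2 ratio of 0.83 (0.74 to 0.92). Among the oligoadenylate synthetase family, Oasl1 stood at 166 and 238, Oasl2 at 34.4 and 55.5, and Oas1a, which makes the signal for RNase L, at 14.6 and 26.5. All 10 genes of these 3 groups (4 IFIT, 3 OAS-family, 3 nucleotide-acting including Isg20) were higher at 12 weeks.

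The 3 transcription factor genes differed by like amounts. Irf7, which amplifies interferon production, stood at 22.1 and 34.1 CPM, Irf9 at 43.1 and 65.4 and Stat2 at 15.7 and 24.4, for log2 ratios between 0.60 and 0.64. Of the 6 nucleic acid sensors, 5 were higher at 12 weeks. Ifi204, a DNA sensor, stood at 142 and 214, while Ifih1, which encodes the RNA sensor MDA5, stood at 43.2 and 48.1 with an interval that included a ratio of 1. Dhx58, a regulator of those RNA sensors, stood at 12.7 and 11.01, also within counting error. The 6 GTPase genes were all higher at 12 weeks, from Gbp3 at 57.1 and 61.9, within counting error, to Ifi47 at 10.7 and 21.3, a log2 ratio of 1.00 (0.68 to 1.31).

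Against this general direction, 3 abundant members were lower at 12 weeks beyond counting error. Counting error leaves out the clumping of UMIs in few cells. At equal depth, the 5% of cells richest in each gene held 58.9% and 72.1% of Cxcl10 UMIs. For Isg15 they held 57.3% and 48.6%, and for Bst2 19.3% and 19.6%. Isg15, a ubiquitin-like protein that is joined to other proteins, stood at 212.5 and 192, a log2 ratio of -0.15 (-0.23 to -0.06). Cxcl10 had a log2 ratio of -0.10 (-0.15 to -0.04) and Bst2 one of -0.13 (-0.17 to -0.08). The median over all 9427 genes with at least 50 macrophage UMIs was -0.06, so these 3 genes lay close to the typical gene. That median fell within the interval of Cxcl10, at the upper end of that of Isg15 and above that of Bst2. Usp18, the protease that removes Isg15 from its targets, had 9.99 and 18.9 CPM and a log2 ratio of 0.92 (0.59 to 1.24), and the conjugating enzyme gene Herc6 9.64 and 13.9. The modifier and these enzymes thus lay on opposite sides of a ratio of 1. Leaving out the 5% of macrophages with the largest share of type I UMIs took the log2 ratio of the type I sum from 0.55 to 0.37, that of the type II sum from 0.415 to 0.28, and that of the broad sum from 0.02 to -0.12.

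**Figure D1:**
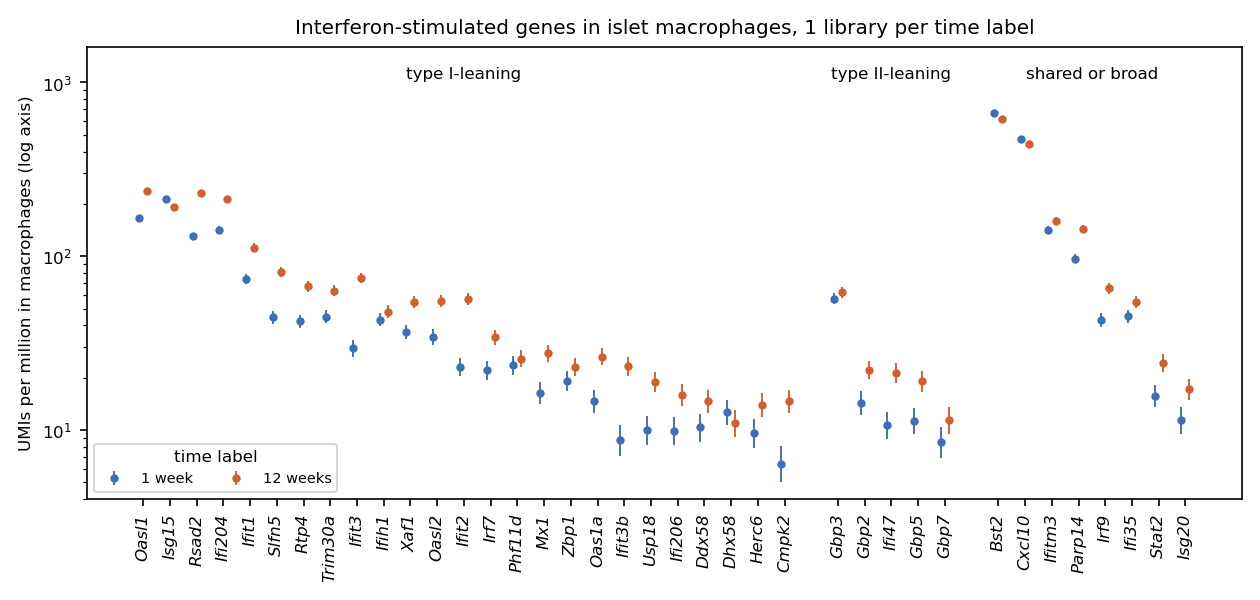
CPM in macrophages (log axis) for the 38 members in the 1-week and 12-week libraries, grouped by interferon type and ordered by mean level; bars are exact Poisson 95% intervals and cover counting error only. Most 12-week points lie above their 1-week points, by over 2-fold for Ifit2, Ifit3, Ifit3b and Cmpk2, while Bst2, Cxcl10, Isg15 and Dhx58 lie below.

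To compare cells of unlike depth, each macrophage with at least 3000 UMIs was thinned at random to 3000, which left 1089 cells at 1 week and 1530 at 12 weeks. A few of these cells held much of the type I signal. The top 1%, 5% and 10% of cells by type I UMIs held 16.4%, 44.0% and 57.5% of those UMIs at 1 week, and 15.3%, 42.7% and 55.6% at 12 weeks. In the same cells 26.6% and 21.2% had none of the 25 genes, and the medians were 1 and 2 UMIs. The highest cells held 102 and 134 type I UMIs spread over 13 and 19 of the 25 genes.

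Cells with at least 10 type I UMIs numbered 82 of 1089 at 1 week (7.53%, 95% interval 6.03 to 9.26) and 161 of 1530 at 12 weeks (10.52%, 9.03 to 12.2). They held 52.0% and 56.7% of all type I UMIs, with a median of 8 and 9 of the 25 genes detected in each. The value of 10 cuts a continuous range, since 33 and 58 cells had 8 or 9 UMIs and 13 and 32 cells had 10 or 11. With the value set at 5 the shares were 19.01% and 25.9%, and with it at 20 they were 3.58% and 4.77%.

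By the share of UMIs in the top 5% of cells, the type I members stood between the lysosomal and MHC class II lists and the cell cycle list. Of the lysosomal and MHC class II genes, which most macrophages share, the top 5% of cells for each list held 7.53% to 8.79%. The top 5% held 22.1% to 25.5% of 15 NF-kB inflammatory transcripts and 17.7% to 28.6% of 10 heat shock transcripts. Cell cycle genes stood above the type I list, at 74.9% and 60.3%. Their means were only 0.614 and 0.257 UMIs per cell, and 81.9% and 84.8% of cells were at 0. The type II members reached 43.2% and 42.3% with means of only 0.304 and 0.411 UMIs per cell, so that most cells were at 0, and their Fano factor, the variance over the mean, was 1.54 and 2.03. That of the type I sum was 17.6 and 21.03, above cell cycle genes at 9.02 and 5.18. The NF-kB list, at 50.8 and 36.3, and heat shock genes, at 44.2 and 40.7, stood higher still.

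**Figure D2:**
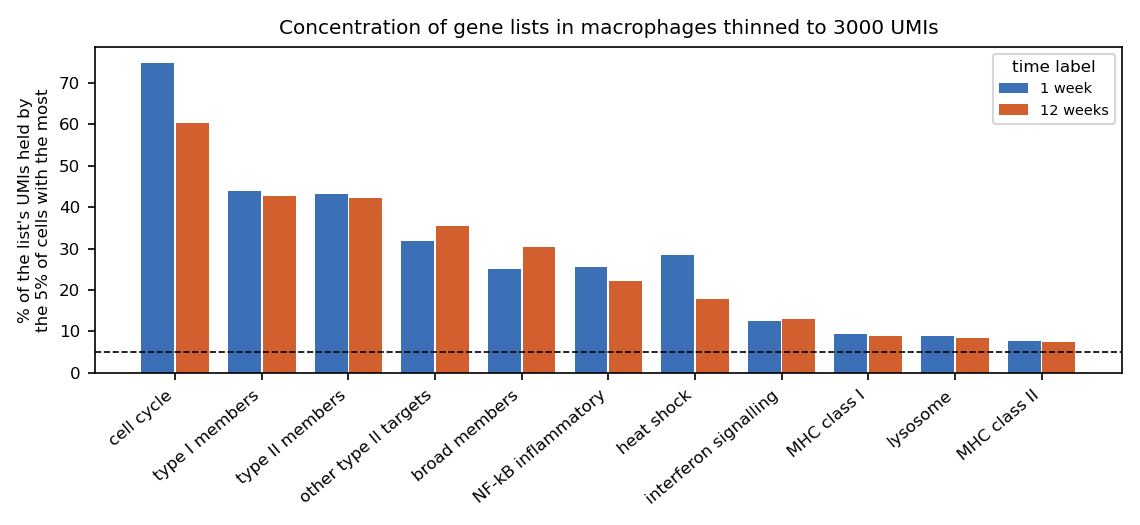
Percent of each gene list's UMIs held by the 5% of macrophages with the most, at 3000 UMIs per cell, for both libraries; the dashed line at 5% is where an even spread would lie. Type I members (44.0% and 42.7%) stood above inflammatory, heat shock, MHC and lysosomal lists and below cell cycle genes. Lists of few UMIs, such as the type II members and cell cycle genes, reach high values when most cells are at 0.

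Gene by gene, Rsad2 and Cxcl10 had the highest values of the list. Independent sampling of transcripts at 1 rate would give a Fano factor of 1, and the median over detected genes was 1.05 and 1.06. A Fano factor above 2 was found for 9 members at 1 week and 11 at 12 weeks, against 2.88% and 2.31% of all genes detected in at least 1% of macrophages. Rsad2 had values of 13.1 and 10.0, with up to 53 and 41 UMIs in a cell and UMIs in only 10.65% and 15.9% of cells. Cxcl10 had 12.8 and 18.6 and was detected in 27.6% and 20.7% of cells. Ifit1 had 5.35 and 8.47, and Isg15 had 6.23 and 3.604. At the other end, Irf9, Stat2, Ifi35, Gbp3 and Dhx58 lay between 0.96 and 1.17 in both libraries. Bst2 was detected in 80.3% and 75.6% of cells, and no other member was found in more than 39.5%.

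The same genes were found together in the same cells. Each member was correlated, on log2(thinned UMIs + 1) across cells, with the summed UMIs of the type I members other than itself. The median Pearson correlation over the 38 members was 0.26 at 1 week and 0.34 at 12 weeks, where the median over 8502 and 8229 detected genes was -0.003 and -0.002. It exceeded 0.2 for 24 members at 1 week and 30 at 12 weeks, against 0.576% and 0.778% of detected genes. These cells share a library and, after thinning, a depth, and they are not replicates, so the correlations are descriptions. The members were also chosen with earlier results of these data known, so these shares describe the list and test nothing.

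By group, the median correlation was 0.27 and 0.35 for type I members, 0.20 and 0.24 for broad members and 0.17 and 0.17 for type II members. Cxcl10 had the first and second highest value of all genes (0.57 and 0.54), although it is no member of the type I list. Rsad2 had 0.53 and 0.57, Isg15 0.56 and 0.50, Ifit1 0.56 and 0.51 and Ifit3 0.48 and 0.54. The closest pairs were Ifit3 with Rsad2 (0.62 and 0.64), Ifit1 with Rsad2 (0.63 and 0.62) and Ifit1 with Ifit3 (0.56 and 0.65). Ifit3 with its near-copy Ifit3b gave 0.52 and 0.64. Among the lowest values were those of Gbp3 (0.05 and 0.12), Irf9 (0.08 and 0.08) and Bst2 (0.10 and 0.17), of which Gbp3 and Bst2 hold paired ISRE cores in the stretches printed above. Over pairs, the median was 0.16 and 0.23 within the type I members, 0.11 and 0.13 between type I and type II, and 0.08 and 0.13 within the 10 type II pairs.

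**Figure D3:**
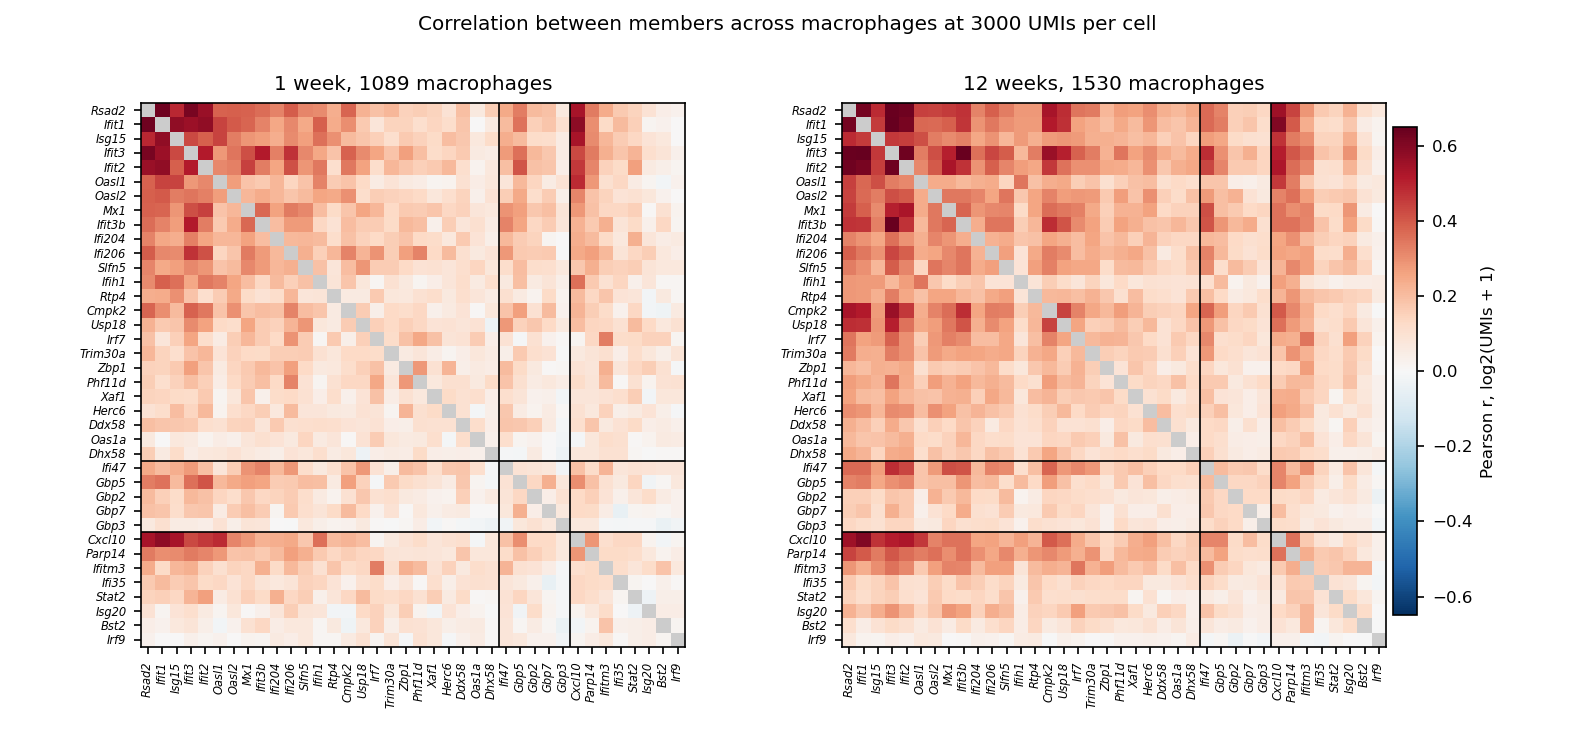
Pearson correlation between members across single macrophages at 3000 UMIs per cell in the 1-week (1089 cells) and 12-week (1530 cells) libraries, with black lines between type I, type II and broad members and grey on the diagonal. Rsad2, Isg15 and the Ifit genes form the darkest block in both panels together with Cxcl10, while Gbp3, Irf9 and Bst2 are pale throughout.

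Cells rich in the other type I genes showed how unevenly members took part. For each member, cells were divided at 10 UMIs of the type I members other than itself, which left 68 to 82 cells above at 1 week and 128 to 161 at 12 weeks. The mean UMIs per cell were higher above than below for all 37 members with a ratio at 1 week and all 38 at 12 weeks, by a median of 7.24 and 6.83 times. Cmpk2 had only 3 UMIs below at 1 week and was given no ratio. The share of all detected genes that were higher above was not computed, so these counts do not set the list apart. Outside the list, H2-K1 had ratios of 1.22 and 1.11, and Cd74 had 0.964 and 0.911. Ifit3 rested on 1.10 against 0.0159 UMIs per cell at 1 week and 1.89 against 0.0248 at 12 weeks, the highest ratios of the list at 69.4 and 76.0. Rsad2 had 4.75 against 0.118 and 4.63 against 0.168, and Ifit1 2.64 against 0.0553 and 2.30 against 0.0566.

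Some members were present whether or not the rest of the list was. Irf9 had 0.159 against 0.133 UMIs per cell at 1 week and 0.261 against 0.185 at 12 weeks, ratios of 1.19 and 1.41. Bst2 had 2.51 against 2.11 and 2.74 against 1.70, ratios of 1.19 and 1.61. Gbp3 had ratios of 1.97 and 2.38. Stat2, whose protein joins Irf9 in the same complex, had ratios of 4.49 and 3.95, and Irf7 had 9.002 and 10.01.

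Type II members were seen most often in the cells richest in type I members, and in 17.9% to 23.4% of cells in each bin below 10 type I UMIs. Across cells the summed type I and type II members had a Pearson correlation of 0.27 at 1 week and 0.32 at 12 weeks, and a Spearman correlation of 0.15 and 0.19. The share of cells with a type II UMI was 18.6% among cells with no type I UMI, 19.3% at 1 to 4 and 22.4% at 5 to 9 in the 1-week library. It was 41.9% (95% interval 27.0 to 57.9) at 10 to 19 and 74.4% (57.9 to 87.0) at 20 or more. At 12 weeks the same shares were 17.9%, 23.4%, 22.03%, 45.5% (34.8 to 56.4) and 69.9% (58.0 to 80.1). The intervals at 20 or more did not overlap those below 10 in either library, but they cover counting error only. Cells of a library are not replicates, and the spread between pools of mice is left out.

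The 5 type II members did not contribute alike. Gbp3 supplied 181 of 331 type II UMIs at 1 week and 302 of 629 at 12 weeks, and its mean moved only from 0.169 to 0.385 and from 0.142 to 0.507 UMIs between cells with no type I UMI and cells with 20 or more. Gbp5, an inflammasome-promoting GTPase, went from 0.00345 to 0.538 and from 0.00615 to 0.466 over the same range. Ifi47, an immunity-related GTPase, went from 0.00345 to 0.333 and from 0.0154 to 0.644. Cells with at least 3 type II UMIs numbered 23 and 61, of which 14 and 38 had at least 10 type I UMIs. Of the 23 and 61 cells, 6 and 14 had fewer than 5 type I UMIs, and 1 and 2 had none.

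**Figure D4:**
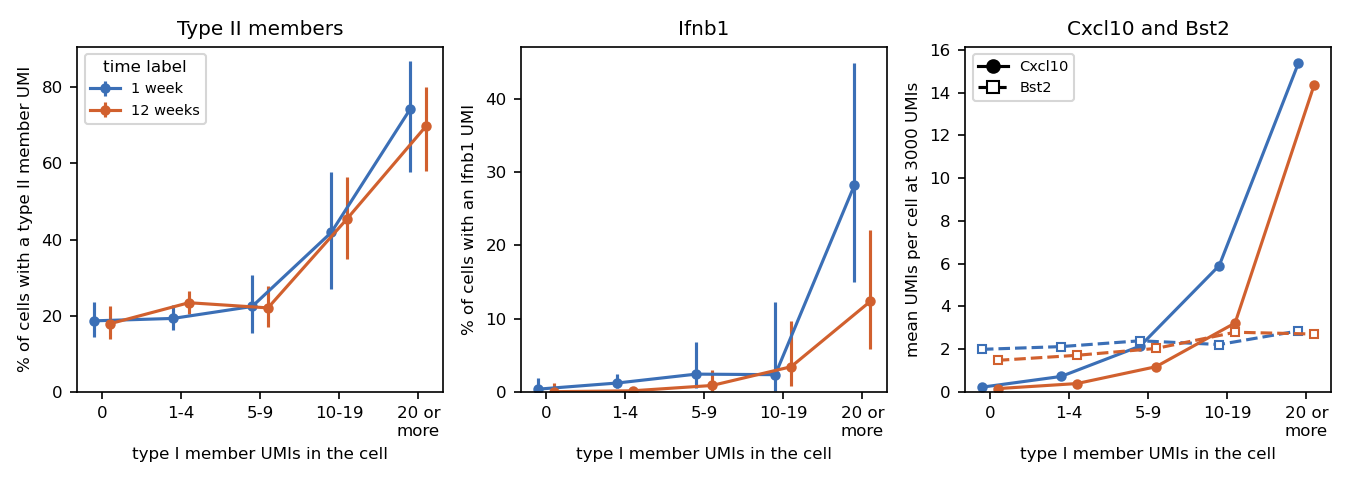
Macrophages at 3000 UMIs per cell binned by type I member UMIs: percent with a type II member UMI and percent with an Ifnb1 UMI (exact 95% intervals, counting error only), and mean Cxcl10 and Bst2 UMIs per cell, for both libraries. Type II members were found in 17.9% to 23.4% of cells up to 9 type I UMIs and Ifnb1 in at most 2.4%. Both stand highest at 20 or more, type II members at 74.4% and 69.9% and Ifnb1 at 28.2% and 12.3%. Cxcl10 climbs across the bins. Bst2 differs less between the first and last bin, at 1.98 and 2.85 at 1 week and 1.47 and 2.70 at 12 weeks.

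The ligands were nearly all undetected. Of the type I interferon genes only Ifnb1 had UMIs, and none of the alpha interferon genes, Ifne, Ifnk, Ifnz or the lambda interferon genes had any in macrophages, B, T or dendritic cells of either library. In macrophages each of these genes had 0 of 11406907 and 0 of 11441581 UMIs, where 3 UMIs of a gene would equal 0.263 and 0.262 CPM. Ifng, the type II interferon, had 2 and 1 UMIs in macrophages and 1 and 7 in T cells.

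Ifnb1 was rare, and it was lower in the 12-week library, where most type I members were higher. Macrophages held 198 Ifnb1 UMIs in 53 cells at 1 week and 57 UMIs in 24 cells at 12 weeks. These are 17.4 and 4.98 CPM, a log2 ratio of -1.80 (-2.23 to -1.38). That interval covers counting error only and leaves out the clumping of Ifnb1 UMIs in few cells. Among the macrophages with at least 3000 UMIs, the 5 cells with the most held 77 of 196 and 28 of 51 of these UMIs. After thinning, 23 and 15 cells kept an Ifnb1 UMI, and 12 and 12 of them had at least 10 type I UMIs. The share with Ifnb1 was 28.2% (95% interval 15 to 44.9) and 12.3% (5.79 to 22.1) among cells with at least 20 type I UMIs, against 0.345% and 0 of 325 cells (interval up to 1.13%) among cells with none. The median type I sum was 10 and 26 in cells with an Ifnb1 UMI and 1 and 2 in the others, and the mean of Cxcl10 was 10.6 and 10.4 UMIs against 1.28 and 1.19.

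Depth, mitochondrial share, C1q and monocyte markers were measured beside the type I sum. From cells with no type I UMI to cells with 20 or more, median UMIs were 7881 and 7832 at 1 week and 6928 and 7591 at 12 weeks, and the median mitochondrial share was 3.25% and 3.67%, then 3.02% and 3.07%. Mean C1q was 33.1 and 29.7, then 26.9 and 28.4 UMIs per cell. The 8 monocyte markers summed to 0.124 and 0.205 UMIs per cell at 1 week and to 0.12 and 0.0411 at 12 weeks. The 15 NF-kB inflammatory genes did move with the type I sum, from 23.7 to 83.5 UMIs per cell at 1 week and from 23.5 to 55.3 at 12 weeks, and their part in the type I signal was not tested. Cells that also held B, T or dendritic markers numbered 0 of 39 and 2 of 73 at 20 or more type I UMIs. Across all cells the NF-kB list had correlations of 0.24 and 0.19 with the type I sum, and MHC class II genes 0.06 and -0.06.

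Outside the list, the 10 genes most alike the type I sum, out of 7917 detected in at least 1% of macrophages in both libraries, were led by 2 chemokine genes. Ccl5 had correlations of 0.55 and 0.41 and Ccl4 0.40 and 0.39. The others were Ifi203 (0.39 and 0.36), Ifi211 (0.31 and 0.40), Irgm1 (0.34 and 0.36), Ifi209, Slfn8, Rnf213, Samd9l and Ifi207, the last at 0.31 and 0.30. Ccl5, like Cxcl10, recruits T cells, and its mean was 11.8 against 1.11 UMIs at 1 week and 7.79 against 0.985 at 12 weeks in cells above and below 10 type I UMIs. Between the same cells Il1b, an inflammatory cytokine gene, had ratios of 1.22 and 1.07, and Tnf 2.52 and 1.60.

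Summed over cells, macrophages carried the type I members at a higher level than the lymphoid cells or dendritic cells sorted with them. The 25 genes summed to 1187 and 1739 CPM in macrophages, 448 (339 to 582) and 733 (615 to 868) in dendritic cells, 318 (146 to 604) and 665 (548 to 800) in T cells, and 172 (124 to 234) and 39.1 (10.7 to 100) in B cells. The log2 ratio of macrophages over the other class was 1.33 ± 0.11 (SD, n = 2 libraries) for dendritic cells, 1.64 ± 0.36 for T cells and 4.13 ± 1.90 for B cells. At 3000 UMIs per cell, 73.4% and 78.8% of macrophages had a type I UMI, as did 5 of 24 and 2 of 15 B cells. Median depths before thinning were 8014 and 7017.5 UMIs in macrophages and 6578 and 4421 UMIs in B cells. The shares were 7 of 12 and 15 of 22 in dendritic cells (95% intervals 27.7% to 84.8% and 45.1% to 86.1%) and 2 of 4 and 14 of 20 in T cells (6.76% to 93.2% and 45.7% to 88.1%), intervals that included the macrophage shares. Median type I UMIs were 1 and 2 in macrophages, 1 and 1 in dendritic cells and 0.5 and 1.5 in T cells, while the means were 3.68 and 4.94, 1.08 and 2.23, and 0.75 and 1.75. The order of B cells below dendritic cells and macrophages held in both libraries beyond counting error, whereas the T and dendritic cell intervals overlapped. Dendritic cells held the 7 macrophage markers at 1177 and 1190 CPM, with Mertk at 0 in both libraries, and the part of this in their values was not tested. They held 6 markers of plasmacytoid dendritic cells at 520.4 and 152.1 CPM and the 8 monocyte markers at 376.3 and 103.2. Whether their make-up differed between the libraries was not tested.

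The type II members had another order. They summed to 424 (219 to 741) and 356 (272 to 459) CPM in T cells, above macrophages at 102 and 136 in both libraries. The T cell sums rest on 12 UMIs in 2 of 9 cells and 60 UMIs in 20 of 33 cells, and at 3000 UMIs per cell 0 of 4 (95% interval up to 60.2%) and 11 of 20 T cells had a type II UMI, against 22.3% and 25.5% of macrophages. The sums gave a log2 ratio of macrophages over T cells of -1.72 ± 0.47 (SD, n = 2). B cells stood at 92.5 (58.0 to 140) and 87.9 (40.2 to 167), intervals that included the macrophage values, and dendritic cells at 54.3 (26.1 to 99.9) at 12 weeks, with only 2 UMIs at 1 week. The broad members stood at 1105 (928 to 1305) and 1488 (1317 to 1675) in dendritic cells, below macrophages (1499) at 1 week and within counting error of them (1521) at 12 weeks.

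**Figure D5:**
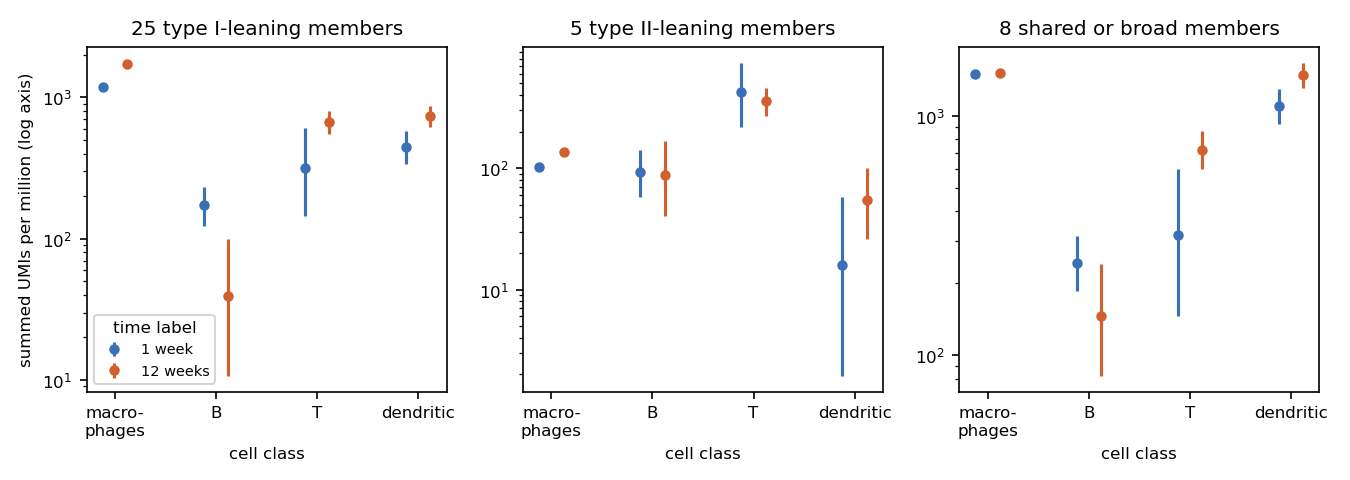
Summed CPM (log axis) of type I, type II and broad members in macrophages, B, T and dendritic cells of the 1-week and 12-week libraries, with exact Poisson 95% intervals that cover counting error only. Macrophages are highest for type I members in both libraries, and T cells are highest for type II members at 424 and 356 CPM.

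The class differences were tested gene by gene on counts summed per class and library, with edgeR's quasi-likelihood test across 2991 genes. Of the 38 members 15 had enough counts, and macrophages alone could carry a member past that filter, so that the counts of calls describe the tested genes and support nothing about the list. With Benjamini-Hochberg adjustment at 0.05, 9 of the 15 were higher and 0 lower in macrophages than in the mean of the other 3 classes (23.4% and 8.99% of all tested genes). At an unadjusted p under 0.05 11 were higher and 0 lower, and DESeq2 called 10 higher and 0 lower. Against B cells 11 were higher and 0 lower (21% and 10.3% of genes), with 13 and 0 at an unadjusted p under 0.05 and 10 and 0 by DESeq2. Against T cells 7 were higher and 2 lower (17.9% and 9.96%), and against dendritic cells 6 higher and 1 lower (9.5% and 6.25%). Each test rests on 2 pools of mice with different time labels. Its p-value sets the class difference against a spread between those pools that all classes share. With 3 residual degrees of freedom, edgeR draws that spread partly from the other tested genes. A small p-value thus does not show close agreement of the 2 pools for that gene. Scaling by library totals in place of TMM, the trimmed mean of M values, lowered all folds over T cells by a median of 0.42 log2 units and the share of higher among all calls there from 64.2% to 47.2%.

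Rsad2, Oasl1, Ifi204, Cxcl10 and Bst2 were higher in macrophages than in each other class. Rsad2 stood at 130 and 231 CPM in macrophages and at 32.0 and 32.6 in dendritic cells (log2 fold 2.62 ± 0.45 SE, adjusted p = 0.00394 by edgeR). It had 0 UMIs in B and T cells, where 3 UMIs over both libraries would make macrophages at least 20.5-fold and 11.9-fold higher. Oasl1 had 4623 UMIs in macrophages over both libraries, 1 in B cells and 1 in T cells, ratios of 68.8 (12.3 to 2720) and 39.8 (7.14 to 1570) by counting error. Ifi204, with 142 and 214 CPM in macrophages, had 2 UMIs in B cells and 4 in T cells, and stood at 16.0 and 70.6 CPM in dendritic cells (log2 fold 2.10 ± 0.47 SE, adjusted p = 0.00973 by edgeR). The 2 macrophage values lay above all values of the other classes for each of these 3 genes.

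Cxcl10 and Bst2, the most abundant members, were present in the other classes too. Cxcl10 stood at 70.7 and 95 CPM in T cells and 168 and 54.3 in dendritic cells, against 475.5 and 444 in macrophages. B cells held 2 Cxcl10 UMIs over both libraries, a ratio of 78.2 (21.6 to 646) by counting error. The log2 folds were 2.70 ± 0.54 (SE) over T cells and 2.24 ± 0.48 over dendritic cells (adjusted p = 0.00304 and 0.00759 by edgeR). In the 1-week dendritic cells, 20 of the 21 Cxcl10 UMIs came from a single cell. Bst2 stood at 96.7 and 48.9 CPM in B cells, 35.4 and 137 in T cells and 304 and 185 in dendritic cells, all below the macrophage values of 669 and 612. The log2 folds of macrophages were 3.07 ± 0.48 (SE), 2.82 ± 0.50 and 1.52 ± 0.42 (adjusted p = 0.000519, 0.00145 and 0.0279 by edgeR).

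T cells exceeded macrophages in 2 GTPase genes of the type II group. Ifi47 stood at 248 and 119 CPM in T cells and at 10.7 and 21.3 in macrophages, a log2 fold of -2.78 ± 0.66 (SE) for macrophages (edgeR adjusted p = 0.00782). Gbp7 stood at 70.7 and 77.2 in T cells and 8.50 and 11.4 in macrophages, a log2 fold of -2.38 ± 0.70 (edgeR adjusted p = 0.0232). The 2 T cell values lay above the 2 macrophage values for each gene. They rest on 27 and 15 UMIs, with Ifi47 in 2 of 9 and 13 of 33 T cells and Gbp7 in 2 of 9 and 8 of 33. The 1-week Gbp7 value in T cells rests on 2 UMIs. Its counting interval (8.57 to 255.5 CPM) overlapped that of macrophages (6.90 to 10.37). Gbp3, the third tested member of that group, stood at 57.1 and 61.9 CPM in macrophages and 70.7 and 77.2 in T cells and was not called (log2 fold 0.17 ± 0.46 SE, edgeR adjusted p = 0.879), and its sign turned with library totals (-0.23 ± 0.57 SE). Isg15 was higher in macrophages than in T cells at an adjusted p of 0.0492 by edgeR, and the call was lost under 5 alternatives, at 0.0523 to 0.0867.

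Dendritic cells exceeded macrophages in Ifitm3, a membrane protein gene that blocks viral fusion. Ifitm3 stood at 408 and 934 CPM in dendritic cells and at 142.5 and 160 in macrophages, a log2 fold of -1.97 ± 0.55 (SE, edgeR adjusted p = 0.0299). The dendritic cell values lay above the macrophage values in both libraries, with UMIs in 8 of 12 and 20 of 23 cells. DESeq2 gave a log2 fold of -1.84 and did not call it (adjusted p = 0.502). The call against B cells was also lost for Ifit1 under DESeq2 (adjusted p = 0.0806), for Irf9 with at most 1 C1q UMI allowed (0.111), without mixed droplets (0.0555) or with library totals (0.0531), and for Slfn5 with at most 1 C1q UMI (0.0719). Against the mean of the classes, Ifit1 was not called by DESeq2 (adjusted p = 0.162), nor Gbp3 with library totals (adjusted p = 0.0668).

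Receptors and signalling genes of the pathway, listed apart from the members, did not share one order. Of 22 such genes 14 were tested. Against the mean of the other classes edgeR called 4 higher in macrophages (Tlr7, Irf5, Socs3 and Ifnar2) and 2 lower (Ifngr1 and Socs1), where 23.4% and 8.99% of all tested genes were called. The genes described here were chosen after these calls were seen. Ifnar2, a chain of the type I receptor, stood at 179.5 and 180 CPM in macrophages, 54.7 and 19.5 in B cells, 177 and 53.4 in T cells and 96.1 and 119.5 in dendritic cells (log2 fold over the mean 1.51 ± 0.31 SE, edgeR adjusted p = 0.00268). Its call over T cells (edgeR adjusted p = 0.0296) was lost with library totals (0.101). Ifngr1, the ligand-binding chain of the type II receptor, stood at 117 and 119 CPM in macrophages and 1485 and 736 in T cells, with no overlap (log2 fold -2.61 ± 0.38 SE, edgeR adjusted p = 0.000453). Socs1, a feedback inhibitor of both pathways, was lower in macrophages than in T cells by 2.91 ± 0.51 on the log2 scale (SE, edgeR adjusted p = 0.0014).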

How the data were processed

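The authors deposited raw UMI counts per gene and barcode from droplet libraries of transcript ends. Per the submitters' processing notes, reads were counted with Cell Ranger against mm10, and per the file headers the software version was 3.1.0. The rule by which barcodes were called cells is not stated in the labels.

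Cells were kept with at least 500 genes, 1000 UMIs and at most 10% mitochondrial UMIs. No doublet caller was run. Among macrophages, 52 and 35 held at least 3 UMIs of B, T or dendritic markers, and leaving them out was an alternative. Thinning to 3000 UMIs drew without replacement (numpy 2.4.6). Class sums were tested with edgeR 4.0.16 (TMM, filterByExpr, library as a block, 3 residual degrees of freedom over 8 profiles), with DESeq2 1.42.0 as an alternative. The edgeR step was also tested on simulated counts. Single-library levels carry exact Poisson intervals and shares exact binomial ones at 95%; both cover counting error only. Positions are from GENCODE M21 (GRCm38).

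All 38 members could be named. Genes outside the list were the 10 most alike the type I sum, and genes of other lists, given mainly as counts. The members, the groups and lists were chosen with earlier results of these data known. Alternatives are given in the closing section, and 5 were chosen after seeing the data.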

Additional observations from a re-analysis of the deposited data

Results flagged for a closer look

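Ifitm3 was set apart because the difference between macrophages and T cells ran in opposite directions in the 2 libraries, beyond counting intervals in each. At 1 week it stood at 142.5 CPM in macrophages (95% interval 135.6 to 149.6) and had 0 UMIs in 9 T cells (95% interval up to 130.5 CPM). At 12 weeks it stood at 160.2 in macrophages and 308.8 in 33 T cells. The difference between the libraries was not tested, since each time label has 1 library. At 12 weeks 46 of the 52 T cell UMIs came from a single cell and the other 6 from 1 more. No other member showed this between macrophages and B, T or dendritic cells.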

How the results depend on the processing

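The 137 alternatives left 109 of their values within the set limits. Without the filter on low counts all 38 members were tested and more were called higher in macrophages, 23 against the mean of the classes, 22 against B, 13 against T and 11 against dendritic cells. Calls of higher genes over the whole table also went from 699 to 1647, 627 to 1043, 534 to 912 and 284 to 533. DESeq2 called 0 members lower than in dendritic cells. Without the replicate block, here the library, the calls were 9 higher and 0 lower against the mean, 11 and 0 against B, 6 and 2 against T, and 6 and 1 against dendritic cells. Scaling by library totals in place of TMM gave 8 and 0, 11 and 0, 6 and 2, and 6 and 1. Leaving out a library in turn gave log2 ratios of the type I sum of 2.78 to 5.48 over B, 1.39 to 1.90 over T and 1.25 to 1.41 over dendritic cells, and of the type II sum of 0.14 to 0.63 over B and -2.06 to -1.39 over T. At 2000 UMIs per cell 5.05% and 6.47% of macrophages had at least 10 type I UMIs, at 5000 14.4% and 21.2%, with the limit at 5 UMIs 19.01% and 25.9%, and at 20 3.58% and 4.77%. The top 5% of cells held 41.9% at 1 week with 5000 UMIs and 44.5% at 12 weeks with 2000. The type I and type II sums had correlations of 0.33 and 0.39 with further type II targets added and 0.15 and 0.19 by Spearman. The median member correlation was 0.19 and 0.25 by Spearman, and 0.39 at 12 weeks with 5000 UMIs. Without the top 5% of macrophages the log2 time ratios were 0.37 for type I, 0.28 for type II and -0.12 for broad members. At a C1q limit of 10 they were 0.51 for type I and -0.014 for broad members, and without mitochondrial and hormone transcripts -0.0049 for broad members. The cause of these shifts was not tested. Library totals, the hormone, T cell, mixed droplet (time ratio) and Spearman (sums) alternatives were chosen after seeing the data.

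T cells at 1 week gave 28274 UMIs from 9 cells, so 1 UMI there equals 35.4 CPM and 3 UMIs equal 106 CPM. A count of 0 there had an exact 95% interval of up to 130.5 CPM.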

Other observations

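Among 18 further targets of interferon gamma outside the member list, 12 had at least 50 macrophage UMIs. Of these 12, 8 (66.7%) were higher and 4 lower at 12 weeks, against 43.0% higher over all genes with that many UMIs. Cxcl9, a chemokine with the same receptor as Cxcl10, stood at 11.8 and 19.8 CPM. Of the cells with at least 10 type I UMIs, 7 of 82 at 1 week and 11 of 161 at 12 weeks held 23 and 49 Cxcl9 UMIs, against 7 and 29 UMIs in all the others. Irgm1, an immunity-related GTPase gene, stood at 35.1 and 53.4. Ciita, which drives MHC class II transcription, went the other way, at 84.5 and 39.3, a log2 ratio of -1.10 (-1.26 to -0.94), and its mean in cells above 10 type I UMIs was 0.28 against 0.249 UMIs at 1 week and 0.0807 against 0.118 at 12 weeks.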
